A study of Gallus gallus with 2 samples.

Results

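Dividing cone precursors are cells that carry cone photoreceptor transcripts while they are still in the cell cycle. In the CTRL library of OTX2ECR2::GFP-positive chick retinal cells, 849 of 5123 cells passed the limits set for them, a share of 16.6% (15.6 to 17.6%). Members were chosen by their measured UMI counts. A cell was taken as a dividing cone when it held at least 3 UMIs of RBP4, at least 2 UMIs of RXRG, THRB and ISL2 together, and at least 3 UMIs summed over the 8 cell cycle genes TOP2A, MKI67, CENPF, CDK1, TPX2, UBE2C, NUSAP1 and RRM2. A UMI (unique molecular identifier) marks 1 captured transcript. The dividing cones made up 36.1% (34.2 to 38.1%) of the 2351 CTRL cells past the cell cycle limit and 47.3% (44.9 to 49.6%) of the 1796 cells past both cone limits.

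The cells came from chick retinas that were electroporated at embryonic day 5 (E5) with OTX2ECR2::GFP, a plasmid in which an enhancer of the OTX2 gene drives green fluorescent protein, then cultured for 48 h as explants and sorted for the fluorescence. CTRL retinas received an empty p18 plasmid, which carries Cas9 under the CAG promoter and the guide scaffold but no guide sequence, so they also expressed Cas9. OTX2CRISPR retinas received the same plasmid with guide 2 against OTX2, a homeodomain transcription factor that photoreceptors need, and the CTRL retinas were the contralateral eyes of the same female embryos. There was 1 pooled library per condition, of 3 retinas by one passage of the study's text and 4 by another, so there is no replicate, the animals cannot be told apart, and no test was run. Every interval below is a 95% exact interval and covers counting error only.

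The CTRL library held 15177210 UMIs in 5128 barcodes and the OTX2CRISPR library 13366081 UMIs in 4953 barcodes, and 38 barcodes occurred in both. OTX2 itself stood at 1721 CPM (counts per 1000000 UMIs) over all kept CTRL cells and at 754 CPM over all kept OTX2CRISPR cells. Most of these reads come from the 3' end of the transcript, and counts per gene do not show whether the targeted exon was edited. The paper reported mutations at the target site in reads of the OTX2CRISPR sample. It also found that most OTX2 amplicon reads made from the same sorted OTX2CRISPR cells were mutated.

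Retinal neurons arise from multipotent retinal progenitor cells (RPCs), some of which become restricted RPCs that express OLIG2 and neurogenic bHLH factors. Cones are usually thought of as leaving the cell cycle when they are born, yet in several vertebrates some cone precursors divide once more and give cones only, a division called homotypic. RXRG and THRB are nuclear receptors, ISL2 is a LIM homeodomain factor and RBP4 is a retinol carrier, and these genes mark young cones of the chick.

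The dividing cones were compared with postmitotic cones and with dividing OLIG2 cells of the same library. The 882 postmitotic cones passed the same cone limits with a cell cycle sum of at most 1, and the 850 dividing OLIG2 cells had the same cell cycle limit, no RBP4 UMI and at least 1 OLIG2 UMI. Because the classes were cut from these counts, RBP4, RXRG, THRB, ISL2, the 8 cell cycle genes and, for the dividing OLIG2 cells, OLIG2 differ by construction. Genes that move with them are described and not tested. Levels are UMIs of a gene summed over a class, in CPM of that class, and are compared between classes and not between genes, since transcripts differ in how well they are captured. A further set, 320 cells with at least 3 UMIs of TFAP2A and TFAP2B, factors of horizontal cells, and a cell cycle sum of at most 1, served as the class that should lack cone transcripts. Transcripts free in the suspension can reach every droplet. The levels in these horizontal reference cells hold such transcripts together with any that the cells made themselves, and these sources were not separated.

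The depth of the dividing cones was close to that of the other dividing cells. Their median was 3222 UMIs and 1496 genes per cell, against 2211 UMIs and 1103.5 genes in postmitotic cones and 3310.5 UMIs and 1442.5 genes in dividing OLIG2 cells. Doublets were not removed. A droplet with a postmitotic cone and a dividing OLIG2 cell of median depth would hold 5521.5 UMIs, and 22 of the 849 dividing cones (2.59%) reached that depth.

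The label was checked first against its 5 markers, of which RBP4, RXRG, THRB and ISL2 chose the cells and KIF25 did not. A dividing cone held 28 RBP4 UMIs in the median, with a range of 3 to 163, and 245 of the 849 held no THRB UMI and 519 no ISL2 UMI. RBP4 stood at 9414 CPM in dividing cones, 11012 CPM in postmitotic cones and 197 CPM in horizontal reference cells. RXRG was at 1530.3, 2318 and 34.6 CPM and THRB at 484, 394 and 5.58 CPM in the same order. ISL2 was at 175 CPM in dividing and 195 CPM in postmitotic cones. KIF25, a kinesin motor gene, reached 249.8 CPM (232 to 269) in dividing cones, 97.9 CPM (84.9 to 112) in postmitotic cones, 30.5 CPM (24.5 to 37.4) in dividing OLIG2 cells and 3.35 CPM in horizontal reference cells. RBP4, RXRG, THRB, ISL2 and the cell cycle sum chose the cells, so their levels do not test the label. KIF25 did not choose the cells, but it was picked as a marker from earlier results of these data. It is therefore not independent evidence for the label either. Its 2-fold call over postmitotic cones was lost against those with THRB (log2 ratio 0.74).

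Along the RBP4 count most dividing CTRL cells held either at most 2 UMIs or at least 11. The bins used here differ in width, so their cell numbers cannot be compared directly. No RBP4 UMI was found in 1019 dividing cells and 1 or 2 in 391, while 39 held 3 to 5 and 81 held 6 to 10. Above that, 213 cells held 11 to 20 and 608 held 21 or more. The share of cells with at least 2 UMIs of RXRG, THRB and ISL2 was 1.08% at no RBP4 UMI and 96.1% at 21 or more. OLIG2 went the other way, from 1222 CPM at no RBP4 UMI to 881 CPM at 3 to 5 UMIs. It was at 428 CPM at 6 to 10, 305 CPM at 11 to 20 and 103 CPM at 21 or more. In the same bins NEUROG2, a proneural bHLH factor, was at 1888, 1293, 458, 351 and 145 CPM. KIF25 went from 28.5 CPM at no RBP4 UMI to 149 CPM at 3 to 5 and 257 CPM at 21 or more.

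**Figure D1:**
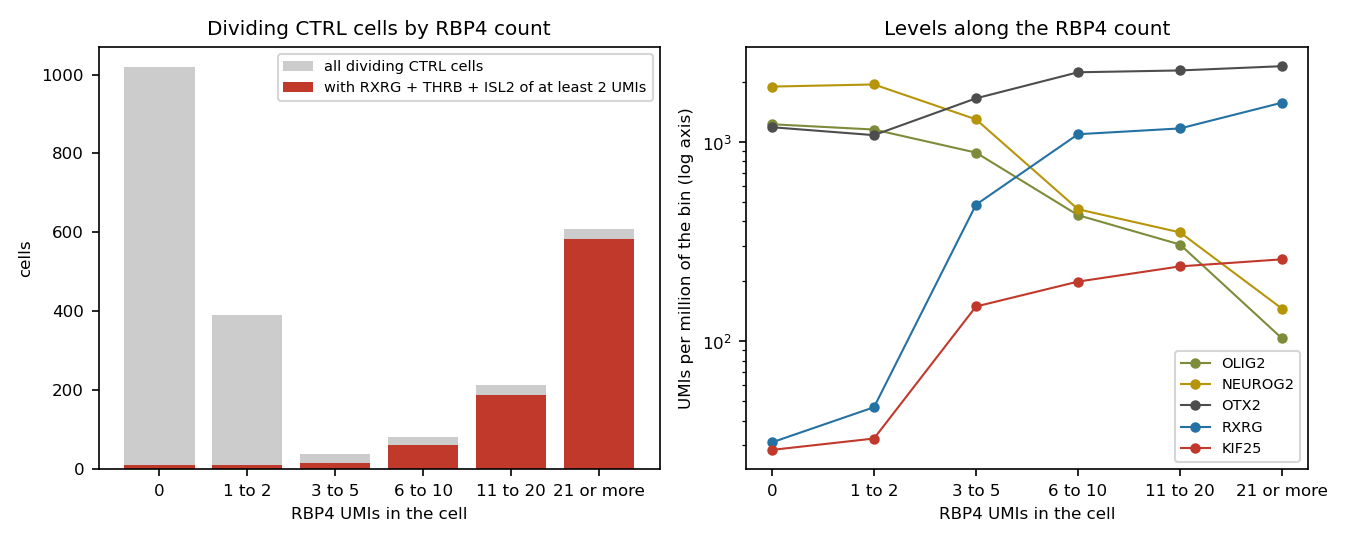
Dividing CTRL cells by their RBP4 UMIs. The bins differ in width. Left, number of cells in each bin, with those past the RXRG, THRB and ISL2 limit in red. Right, levels of 5 genes in CPM of the bin on a log axis. The bins of 3 to 5 and 6 to 10 RBP4 UMIs hold 39 and 81 cells, and OLIG2 and NEUROG2 are lower in the bins where RXRG and KIF25 are higher.

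The limits cut through few cells. Past both cone limits, 65 cells had a cell cycle sum of 2, just outside, and 26 a sum of 3, just inside. The cells just outside had HMGB2 at 368 CPM and KIF25 at 96.1 CPM, those just inside 438 and 90.3 CPM, and members with a sum of 4 or more 2805 and 254 CPM. HMGB2 encodes a chromatin protein of proliferating cells. The 26 cells at the limit were thus closer to postmitotic cones in both genes. At the RBP4 limit 7 dividing cells with 2 UMIs lay outside and 8 with 3 UMIs inside. NOTCH1 was at 465 and 495 CPM in them, but OLIG2 was at 271 and 35.3 CPM. NEUROG2 was at 388 and 70.7 CPM and HES5, a Notch target, at 659 and 247 CPM. These levels rest on few cells. At the limit for RXRG, THRB and ISL2, 50 cells with 1 UMI lay outside and 56 with 2 UMIs inside. OLIG2 was at 687 and 247 CPM in them and NOTCH1 at 735 and 329 CPM.

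Over all genes, the dividing cones differed from each comparison class in a similar number of genes. A gene was called when its CPM differed at least 2-fold and it had at least 100 UMIs over the classes compared. A gene near 0 in a class can reach this minimum only through another class. Counts for lists of such genes thus lean towards the class where they are high. Against postmitotic cones, 473 of 5922 genes were higher in dividing cones (7.99% of genes tested) and 402 were lower (6.79%). Against dividing OLIG2 cells, 474 of 6143 genes were higher (7.72%) and 371 lower (6.04%). At least 2-fold higher than in both classes were 30 of 7201 genes (0.417%), and 53 were lower than in both (0.736%). The median log2 ratio over all genes tested was -0.08 against postmitotic cones and 0.13 against dividing OLIG2 cells. The lists below were read against these shares and medians.

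**Figure D2:**
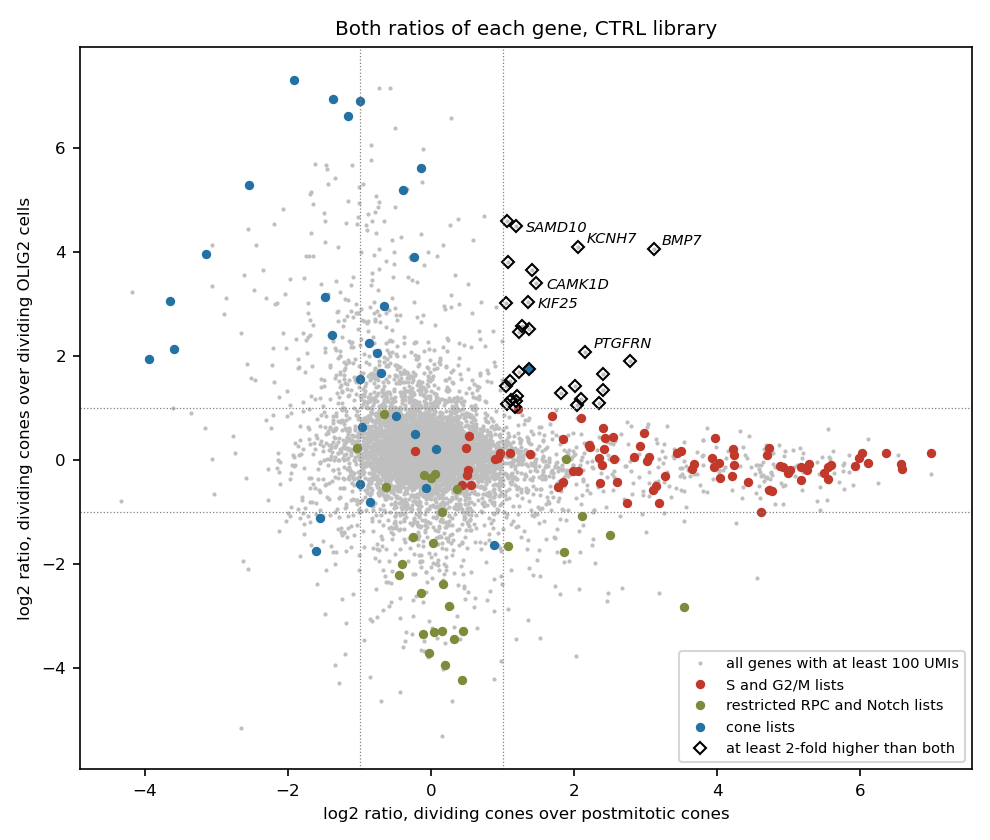
Each gene with at least 100 UMIs over the 3 classes, by its log2 ratio of dividing cones over postmitotic cones (x axis) and over dividing OLIG2 cells (y axis). Most genes of the S and G2/M lists lie to the right near 0 on the y axis. Most restricted RPC and Notch genes lie below 0 near the middle of the x axis. Most cone genes lie above 0, with some, such as TBX2, below it. The 30 genes at least 2-fold higher than in both classes (diamonds) include BMP7, KCNH7, PTGFRN, CAMK1D, KIF25 and SAMD10.

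Cell cycle genes outside the rule were at the level of the other dividing cells. Of the S phase list, 26 of 32 genes tested were at least 2-fold higher than in postmitotic cones with none lower, and of the G2/M list 39 of 42, again with none lower. Their median log2 ratios were 2.41 and 4.72. Against dividing OLIG2 cells the medians were 0.14 and -0.13, and only CKS2, a subunit of cyclin-dependent kinases, was called among the 37 and 43 genes tested, and it lay at the 2-fold limit, with its call lost under 5 of the alternative settings. AURKA, which encodes a mitotic spindle kinase, was at 184 CPM (169 to 201) in dividing cones, 1.44 CPM (0.297 to 4.21) in postmitotic cones and 167 CPM (152 to 182) in dividing OLIG2 cells. SMC2, a condensin subunit that is in none of the lists, was at 400.5, 4.32 and 375 CPM, and PLK1, a mitotic kinase, at 293, 8.64 and 323 CPM. Both dividing classes share the cell cycle limit, so these levels are close to what chose the cells.

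Called after each cell was thinned to 1000 UMIs, with phase lists that left out the genes of the rule, 85.3% of the dividing cones were in G2/M, 12.2% (10.0 to 14.6%) in S and 2.48% in G1. Among dividing OLIG2 cells 91.5% were in G2/M and 6.97% (5.35 to 8.90%) in S. Of postmitotic cones 89.3% were in G1. Most of the 8 genes in the cell cycle limit peak in G2 and mitosis, so these shares describe the cells chosen and not the length of a phase.

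Regulators of the cycle did not all follow the other dividing cells. E2F1, which drives entry into S phase, stood at 341 CPM (319.7 to 363) in dividing cones, 61.9 CPM (51.7 to 73.6) in postmitotic cones and 2237 CPM (2183 to 2291) in dividing OLIG2 cells, a log2 ratio of -2.71 (-2.81 to -2.62) against the last. E2F2 and E2F8 were much closer, at 72.7 and 109 CPM in dividing cones and 95.8 and 116 CPM in dividing OLIG2 cells. CDK6, a kinase of the G1 phase, was at 178 CPM in dividing cones, 106 CPM in postmitotic cones and 536 CPM in dividing OLIG2 cells. CDKN1C (p57), an inhibitor of cyclin-dependent kinases, was at 275 CPM in both cone classes and at 1147 CPM (1109 to 1186) in dividing OLIG2 cells. So E2F1, CDK6 and CDKN1C were all at least 2-fold lower than in the other dividing cells.

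CDKN1A (p21), another inhibitor of these kinases, was at 50.7 CPM (42.7 to 59.7) in dividing cones, 227 CPM (207 to 248) in postmitotic cones and 56.5 CPM in dividing OLIG2 cells. BTG2, an antiproliferative gene, was at 221, 625 and 116 CPM. CDKN2C (p18), which inhibits CDK4 and CDK6, was at 148, 5.28 and 266 CPM. CDKN1A in dividing cones was thus close to its level in dividing OLIG2 cells. BTG2 and CDKN2C both lay between the comparison classes, nearer to dividing OLIG2 cells than to postmitotic cones. Of the cell cycle control list as a whole, 9 of 26 genes tested were higher and 3 lower than in postmitotic cones, and 1 of 30 was higher and 4 lower than in dividing OLIG2 cells. The gene that was higher was CDK2, the S phase kinase, at 24.5, 4.80 and 11.5 CPM, and its call over dividing OLIG2 cells was lost when classes were scaled by the median of gene ratios (log2 ratio 0.95).

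Of the list on retinoblastoma and cone precursor growth, genes linked to the proliferation of human cone precursors that lack RB1, 4 of 13 tested were higher and 2 lower than in postmitotic cones, and none of 13 was called against dividing OLIG2 cells. RB1, the retinoblastoma gene, was at 68.0 CPM (58.8 to 78.4), 48.0 CPM and 65.0 CPM in dividing cones, postmitotic cones and dividing OLIG2 cells. RBL1, its relative p107, was at 43.2, 8.64 and 37.9 CPM. SKP2, a subunit of the ubiquitin ligase that degrades p27, was at 39.3, 24.0 and 45.7 CPM, and MDM2, the ubiquitin ligase of p53, at 58.5, 99.4 and 52.8 CPM. MYCN was at 23.4, 40.8 and 10.8 CPM and its relative MYCL at 82.6, 219 and 53.8 CPM. RB1 transcripts were thus present in the dividing cones at a level within 2-fold of both other classes.

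Transcription factors of photoreceptors were present in the dividing cones, mostly at or below the level of postmitotic cones. OTX2 stood at 2374 CPM (2318 to 2432) in dividing cones, 3329 CPM (3251 to 3408) in postmitotic cones and 1322 CPM (1281 to 1365) in dividing OLIG2 cells. PRDM1 (BLIMP1), a repressor that steadies photoreceptor fate, was at 397, 626 and 51.1 CPM. SALL1, a zinc finger factor, was at 310.4, 364 and 20.6 CPM, and LHX4, a LIM homeodomain factor, at 40.4, 80.6 and 0.338 CPM. These factors were within about 2-fold of postmitotic cones, and all but OTX2 were at least 2-fold higher than in dividing OLIG2 cells. CASZ1 and OTX5 were called lower than in postmitotic cones, at 125 against 327 CPM and 14.9 against 41.8 CPM. Of the 15 regulators tested none was higher and 4 were lower than in postmitotic cones, with a median log2 ratio of -0.71, and 5 of 13 were higher and 3 lower than in dividing OLIG2 cells.

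TBX2, a T-box factor of cone subtypes, and MEF2D, a factor that activates photoreceptor genes in the mouse, were lower than in both classes. TBX2 was at 37.9 CPM (31.1 to 45.8) in dividing cones, 115 CPM in postmitotic cones and 127 CPM in dividing OLIG2 cells. Its comparison with postmitotic cones depended on their subtypes, as described below. MEF2D was at 26.2, 77.3 and 56.9 CPM, and its call against dividing OLIG2 cells was lost when cells were thinned to 2000 UMIs (log2 ratio -0.94) or when the 5% of cells with the most UMIs were left out (-0.95).

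Genes of phototransduction and outer segment structure split into some that were near the postmitotic level and others that were far below it. IMPG2, a proteoglycan of the matrix around photoreceptors, was at 347 CPM (326 to 369) in dividing cones, 457 CPM (428 to 487) in postmitotic cones and 9.48 CPM in dividing OLIG2 cells. RP1L1, a microtubule protein of the photoreceptor axoneme, was at 50, 55.2 and 0 CPM, at least 49.2-fold higher than in dividing OLIG2 cells when a floor of 3 UMIs is set for that class. PPP2R2B, a regulatory subunit of protein phosphatase 2A, was at 129.7, 107 and 1.35 CPM. These 3 genes were within 2-fold of postmitotic cones.

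The visual pigment and its cascade were much lower. OPN1LW, the red cone opsin, was at 26.6 CPM (20.9 to 33.3) in dividing cones and 236 CPM (215 to 257) in postmitotic cones, a log2 ratio of -3.15 (-3.52 to -2.80), and GNAT2, the cone transducin subunit, at 7.44 and 90.2 CPM. CABP4, a calcium-binding protein of the cone synapse, was at 5.67 and 71.0 CPM, and FSCN2, an actin-bundling protein of photoreceptors, at 92.5 and 542 CPM. GNGT2, PDE6H and EGFLAM were lower by less, at 53.9, 41.8 and 301 CPM against 204, 108 and 674 CPM. Even so, GNGT2 had 152 UMIs in dividing cones and 1 in dividing OLIG2 cells, a log2 ratio of 7.31 (4.81 to 12.63). In all, 8 of the 13 genes of this list that were tested were lower and 1 higher than in postmitotic cones, with a median log2 ratio of -1.37, and all 8 tested against dividing OLIG2 cells were higher.

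The gene of this list that was higher than in postmitotic cones, CNGA3, encodes a subunit of the cone channel gated by cyclic nucleotides. It stood at 56.0 CPM (47.6 to 65.4) in dividing cones, 21.6 CPM (15.8 to 28.9) in postmitotic cones and 16.6 CPM (12.3 to 21.9) in dividing OLIG2 cells, and the interval of the dividing cones did not overlap the others.

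**Figure D3:**
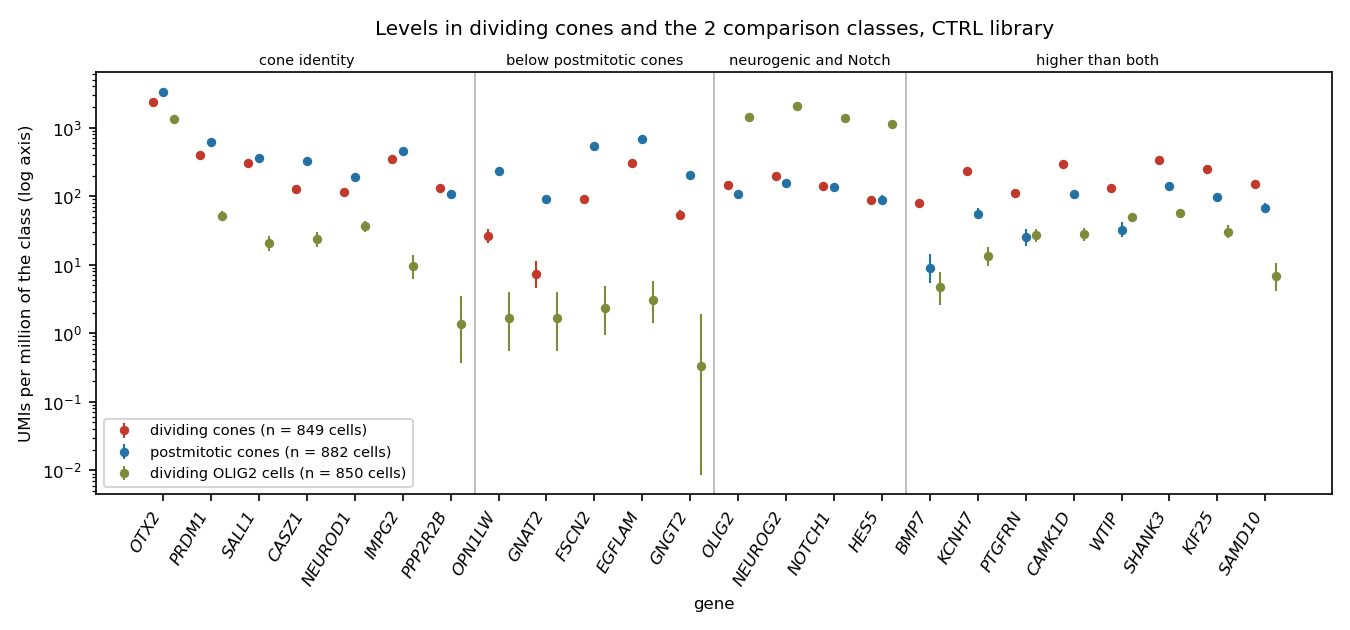
Levels of 24 genes in dividing cones, postmitotic cones and dividing OLIG2 cells of the CTRL library, in CPM of the class on a log axis, with 95% exact Poisson intervals as bars. The groups of genes were formed after their values were seen. Dividing cones sit near postmitotic cones for most genes at the left, but CASZ1 is called lower. They sit below postmitotic cones for OPN1LW to GNGT2. For OLIG2 to HES5 they are within 2-fold of all postmitotic cones and below dividing OLIG2 cells. For BMP7 to SAMD10 they are above both.

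Genes of restricted RPCs and of the Notch pathway were low in the dividing cones, although they were high in the other dividing cells. OLIG2, which chose the comparison class, was at 146 CPM (132 to 161) in dividing cones, 107 CPM (93.0 to 122) in postmitotic cones and 1436 CPM in dividing OLIG2 cells. NEUROG2 was at 194, 155 and 2099 CPM. NOTCH1, a Notch receptor, was at 139 CPM (126 to 154), 135 CPM (120.0 to 152) and 1387 CPM, and HES5, its target and a repressor of neurogenesis, at 87.5, 89.3 and 1149 CPM. NRARP, which is induced by Notch, was at 43.6, 39.4 and 427 CPM. Against all postmitotic cones these genes were within 2-fold, although the OLIG2 intervals did not overlap. This depended on the cells taken. Against the 328 postmitotic cones with a THRB UMI and no UMI of DIO2, NFIB or CA10, a comparison chosen after seeing the data, the log2 ratio was 2.11 (1.55 to 2.73) for OLIG2, 1.96 (1.27 to 2.74) for HES5, 0.91 (0.57 to 1.26) for NEUROG2, 0.59 (0.23 to 0.97) for NOTCH1 and 0.22 (-0.37 to 0.84) for NRARP. Without the members that held an OLIG2 UMI, the ratios of NEUROG2, NOTCH1 and NRARP over all postmitotic cones were -0.40, -0.82 and -0.48. Postmitotic cones with an OLIG2 UMI were kept there, so the classes were not matched for OLIG2 and the filter itself lowers such ratios. NEUROG2 reached 126 CPM in horizontal reference cells, whereas OLIG2 and HES5 were at 8.93 and 17.9 CPM there. Whether the NEUROG2 in any of these classes came from free transcripts was not tested.

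Other genes of these lists kept a higher level in the dividing cones. TFAP2D, a factor of the AP-2 family, was at 1065 CPM (1027 to 1103) in dividing cones, 189 CPM (170.4 to 208) in postmitotic cones and 2881 CPM (2820.3 to 2943) in dividing OLIG2 cells. DLL1, a Notch ligand, was at 149.6, 41.3 and 509 CPM and BHLHE22, a bHLH repressor, at 186, 87.8 and 582 CPM. Between dividing cones with and without an OLIG2 UMI, log2 ratios were 0.77 for TFAP2D, 0.56 for DLL1 and 0.40 for BHLHE22. Without the members that held an OLIG2 UMI, and with postmitotic cones not filtered in this way, BHLHE22 lost its call over postmitotic cones (log2 ratio 0.96). HEY1, a Notch target, was at 46.4, 12.5 and 45.7 CPM. Of the restricted RPC list 2 of 12 genes tested were higher and 1 lower than in postmitotic cones, and of the Notch list 2 of 14 were higher and none lower. Against dividing OLIG2 cells 10 of 14, OLIG2 itself among them, and 10 of 15 were lower and none was higher. Of the multipotent RPC list 14 of 17 were lower than in dividing OLIG2 cells and none higher.

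**Figure D4:**
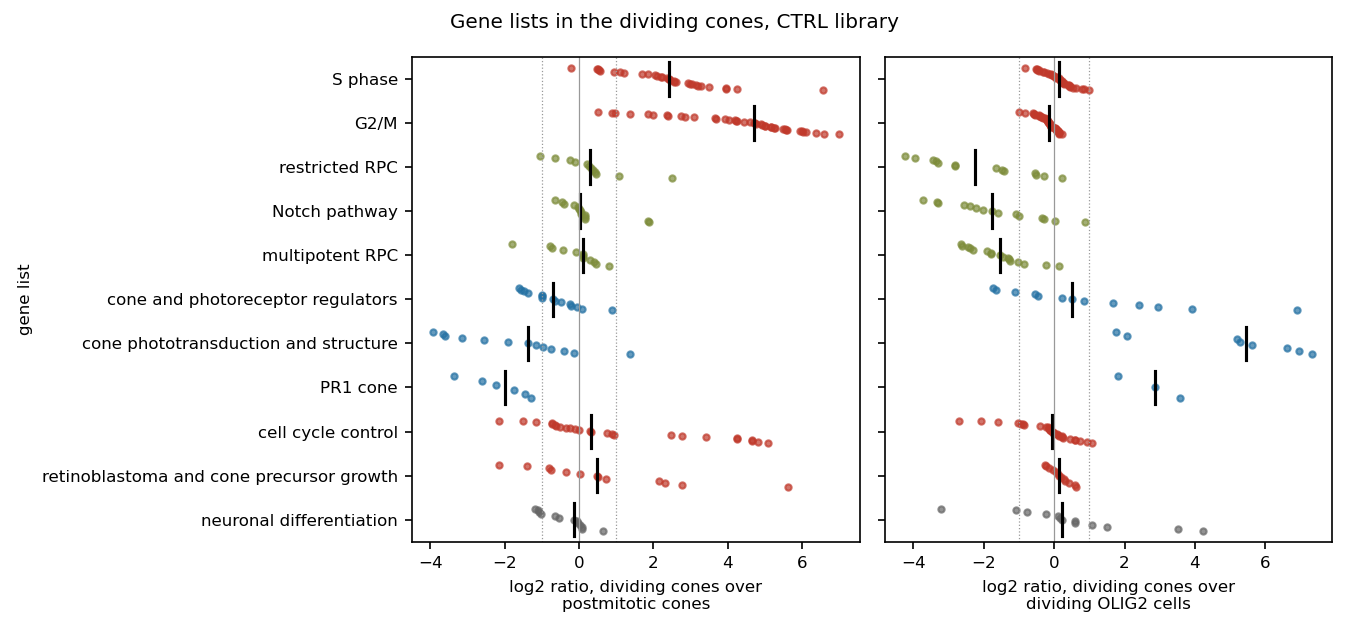
Log2 ratios of dividing cones over postmitotic cones (left) and over dividing OLIG2 cells (right) for the genes tested in 11 lists, 1 point per gene, with the list median as a black line and 2-fold as dotted lines. OLIG2 is among the points of the restricted RPC list. The S and G2/M lists have medians of 2.41 and 4.72 on the left and 0.14 and -0.13 on the right. The medians of the restricted RPC and Notch lists lie near 0 on the left and below -1 on the right.

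A position was computed for each gene that was at least 8-fold higher in dividing OLIG2 cells than in postmitotic cones, with 0% at the postmitotic level and 100% at the level of dividing OLIG2 cells. The 46 cell cycle genes among them had a median position of 91.1%, and none was below 10%. The 13 genes of the restricted RPC and Notch lists, OLIG2 among them, had a median position of 2.01%, and 9 of them were below 10%. Over all 293 such genes the median was 74.1%. The cell cycle limit is shared by both dividing classes and OLIG2 chose one of them, so these positions are set in part by how the cells were chosen.

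Genes higher in dividing cones than in both classes led with BMP7, a secreted bone morphogenetic protein. It was at 79.0 CPM (69.0 to 90.1) in dividing cones, 9.12 CPM (5.49 to 14.2) in postmitotic cones, 4.74 CPM (2.59 to 7.95) in dividing OLIG2 cells and 2.23 CPM in horizontal reference cells, log2 ratios of 3.12 (2.44 to 3.87) and 4.06 (3.28 to 4.95). A BMP7 UMI was found in 159 of the 849 dividing cones (18.7%), 17 of the 882 postmitotic cones (1.93%) and 11 of the 850 dividing OLIG2 cells (1.29%). After thinning to 1000 UMIs the shares were 6.38% (4.83 to 8.25%), 0.80% and 0.473%, with 0.315% in horizontal reference cells. No single cell gave more than 3.14% of the BMP7 UMIs of the dividing cones. The higher level holds against these comparison classes and does not make BMP7 specific to dividing cones. Taken over every kept cell, BMP7 amounted to 24.1 CPM for the CTRL library and 20.1 CPM for OTX2CRISPR. Yet only 23 OTX2CRISPR cells passed the limits, and they held 4 BMP7 UMIs. Other cells thus carried BMP7 too, and their type was not tested.

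KCNH7, a voltage-gated potassium channel gene, was at 232 CPM (214 to 250.2) in dividing cones, 55.7 CPM (46.0 to 66.8) in postmitotic cones and 13.5 CPM in dividing OLIG2 cells, but also at 189.7 CPM in horizontal reference cells. PTGFRN, an immunoglobulin membrane protein, was at 113, 25.4 and 26.7 CPM, and CAMK1D, a calcium/calmodulin-dependent kinase, at 295, 106 and 27.7 CPM. SHANK3, a scaffold of synapses, was at 335, 139 and 56.2 CPM, WTIP, a LIM domain protein, at 132, 32.6 and 49.1 CPM, and SAMD10, a SAM domain gene, at 153, 67.2 and 6.77 CPM. UBE2T, a ubiquitin-conjugating enzyme of the Fanconi anaemia pathway, was at 164, 46.6 and 67.3 CPM. CHST11 and GALNT16, which encode a chondroitin sulfotransferase and a glycosyltransferase, were at 33.0 and 38.3 CPM in dividing cones, with at most 12.2 CPM in either comparison class. In horizontal reference cells they were at 17.9 and 7.81 CPM. The most abundant of the 30 genes was TAGLN3, a neuronal gene that encodes a calponin-family protein, at 1074, 513 and 507 CPM. When classes were scaled by the median of gene ratios, 25 of the 30 genes kept their call, and TAGLN3 and CDK2 were among those that lost it. Of a list of 4 genes drawn from earlier results of these data, KIF25, CAMK1D, SAMD10 and PPP2R2B, 3 were called higher than in postmitotic cones and 4 higher than in dividing OLIG2 cells, and as they were chosen on these samples this is not independent evidence.

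The 53 genes lower than in both classes were of low abundance, and none exceeded 58.8 CPM in dividing cones. CKMT1A, a mitochondrial creatine kinase, was at 58.8, 209 and 127 CPM, and DYNC1I1, a dynein intermediate chain, at 48.2, 119 and 120.5 CPM. SYNE1, which links the nucleus to the cytoskeleton, was at 9.92, 61.4 and 37.9 CPM. These 3 genes and TAGLN3 were chosen after their values were seen.

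Neuronal genes were already present. STMN2, a microtubule regulator of growing neurites, was at 190.3 CPM (175 to 207) in dividing cones, 278 CPM in postmitotic cones and 10.2 CPM (6.85 to 14.5) in dividing OLIG2 cells. TUBB3, a neuronal tubulin, was at 369.6, 403 and 131 CPM, and DPYSL3, a regulator of growth cones, at 97.1, 208 and 8.46 CPM. ELAVL4, a neuronal RNA-binding protein, went the other way, at 26.2 CPM in dividing cones and 245 CPM in dividing OLIG2 cells. Of the neuronal list none of 13 tested was higher and 4 were lower than in postmitotic cones, and 4 of 13 were higher and 2 lower than in dividing OLIG2 cells.

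Postmitotic cones of this library were a mixture of subtypes, and the dividing cones held the marks of these subtypes in other proportions. A UMI of DIO2, NFIB or CA10, which mark the cones called PR1, was found in 117 of the 849 dividing cones (13.8%, 11.5 to 16.3%) and in 346 of the 882 postmitotic cones (39.2%, 36.0 to 42.5%). THRB went the other way, with a UMI in 71.1% (68.0 to 74.2%) of dividing and 49.9% (46.5 to 53.2%) of postmitotic cones. After thinning to 1000 UMIs the THRB shares were 35.6% (32.3 to 38.9%) and 30.2% (27.1 to 33.3%). DIO2, the deiodinase that activates thyroid hormone, was at 36.1 CPM in dividing and 222 CPM in postmitotic cones, NFIB, a nuclear factor I gene, at 5.67 and 58.1 CPM, and B3GAT2, a glucuronyltransferase, at 148 and 364 CPM. Of the 8 PR1 genes listed, 6 were tested and all 6 were lower in dividing cones. Genes such as NFIB reached the minimum of UMIs mainly through the postmitotic cones. This count therefore leans towards that class and adds little to the levels given above.

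For a further comparison, only the 328 postmitotic cones with a THRB UMI and no UMI of DIO2, NFIB or CA10 were taken. This choice was made after seeing the data. Then 24 of 6650 genes tested were higher than in both classes, 18 of them among the 30. BMP7 kept a log2 ratio of 2.52 (1.66 to 3.55), KCNH7 of 2.04, PTGFRN and WTIP of 1.86, CAMK1D of 1.60 and SHANK3 of 1.45. KIF25 dropped below 2-fold, with a log2 ratio of 0.74, and so did SAMD10 at 0.89, IGDCC3 at 0.87, RASGEF1B at 0.85 and AADACL4L3 at 0.38. TBX2 turned from -1.60 to 0.22 and B3GAT2 from -1.30 to 0.32, and PPP2R2B, not called, from 0.28 to -0.18. The calls of KIF25 and SAMD10 thus depended on which postmitotic cones were taken, and THRB itself chose these. The dividing cones were not filtered in the same way, so the 2 sides were not matched for subtype. Of the dividing cones, 245 held no THRB UMI and 117 held a UMI of DIO2, NFIB or CA10.

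The dividing cones also varied among themselves. By called phase, the 103 members in S had MCM5 and MCM2, subunits of the replication helicase, at 314 and 182 CPM against 50.6 and 20.7 CPM in the 722 members in G2/M. RBP4 was at 10543 CPM in S and 9253 CPM in G2/M, OTX2 at 2291 and 2392 CPM, and RXRG at 1788 and 1492 CPM. THRB was lower in S, at 367 CPM (306 to 437) against 505 CPM (477 to 534). BMP7 was at 20.6 CPM (8.27 to 42.4) in S and 87.4 CPM (76.0 to 100.1) in G2/M, and KIF25 at 109 CPM (76.5 to 149.8) and 271 CPM (250.6 to 293). SALL1 and TFAP2D were also lower in S, at 170.3 against 332 CPM and 681 against 1139 CPM.

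Some cone genes that were low in dividing cones as a whole were higher in the members called S. FSCN2 was at 229 CPM (181 to 286) in S and 69.2 CPM (59.1 to 80.5) in G2/M, and OPN1LW at 91.0 CPM (61.9 to 129.2) and 16.2 CPM (11.5 to 22.1). CCND1 (cyclin D1), which acts in G1, was at 214 and 35.2 CPM. E2F1 was at 584 CPM in S and 309.5 CPM in G2/M. The median cell cycle sum was 9 in the S members and 23 in the G2/M members. Among the 80 S members with a sum of at least 5, FSCN2 was at 199.7 CPM, OPN1LW at 70.3 CPM (42.3 to 109.7), CCND1 at 163 CPM and BMP7 at 14.8 CPM (4.03 to 37.9), against 68.0, 15.02, 34.2 and 87.6 CPM in the 717 G2/M members with such a sum. The 4 differences thus kept their direction away from the limit. Among the same cells GNAT2 was also higher in S, at 22.2 CPM (8.14 to 48.3) against 5.01 CPM (2.59 to 8.75). EGFLAM was not, at 263 CPM (205 to 331) in S against 301 CPM (279 to 324) in G2/M.

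**Figure D5:**
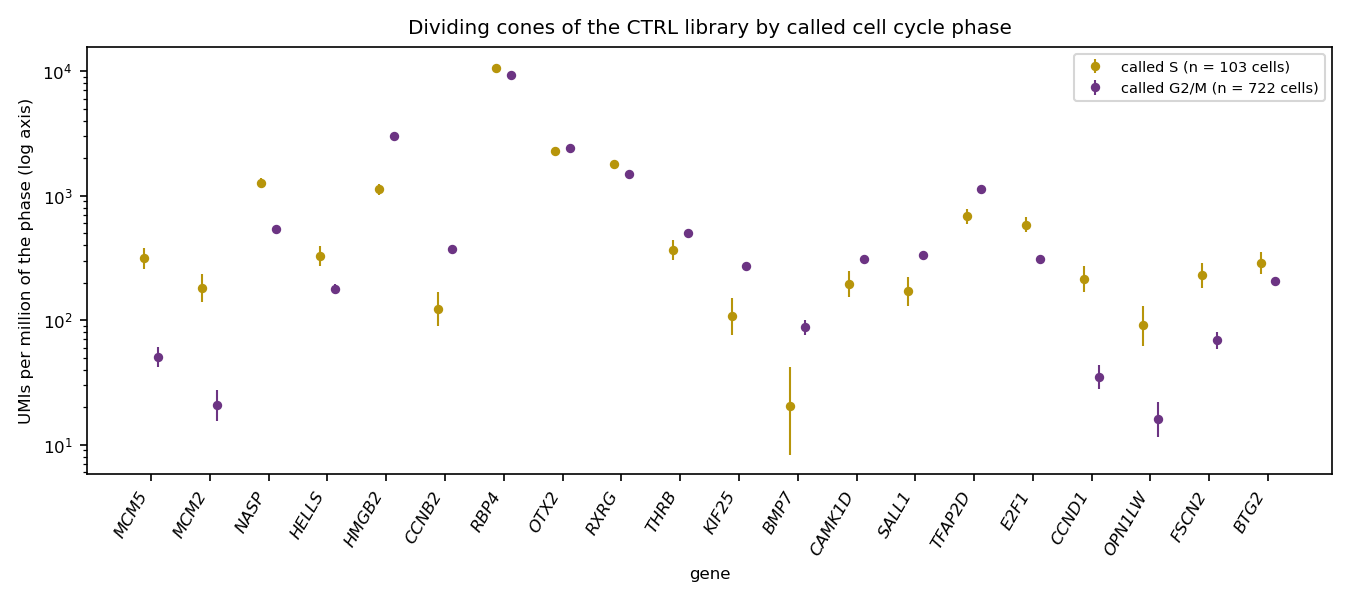
Levels of 20 genes in the 103 dividing cones called S and the 722 called G2/M after thinning to 1000 UMIs, in CPM of the phase on a log axis with 95% exact Poisson intervals. MCM5 and MCM2 are higher in S, HMGB2 and CCNB2 higher in G2/M, RBP4, OTX2 and RXRG similar in both, BMP7 and KIF25 higher in G2/M, and CCND1, OPN1LW and FSCN2 higher in S.

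An OLIG2 UMI was found in 215 of the 849 dividing cones (25.3%, 22.4 to 28.4%), in 12.2% of postmitotic cones and in 2.19% of horizontal reference cells. After thinning to 1000 UMIs the shares were 12.5% (10.4 to 15%), 6.74% (5.17 to 8.61%) and 0.631%, with median depths of 3223.5, 2213 and 2716 UMIs before thinning. The members with an OLIG2 UMI had a median of 3391 UMIs and those without it 3145. HES5 was at 229 CPM in members with OLIG2 and 35.4 CPM in those without, NOTCH1 at 309 and 76.7 CPM, NEUROG2 at 402 and 117 CPM and E2F1 at 561 and 260 CPM. Their log2 ratios were 2.69 (2.29 to 3.11), 2.01 (1.71 to 2.31), 1.78 (1.53 to 2.03) and 1.11 (0.93 to 1.30). RBP4 was at 7707 CPM with and 10045 CPM without OLIG2. Of 4122 genes with at least 100 UMIs over both sets, 21 were at least 2-fold higher with OLIG2 (0.509%) and 7 lower (0.170%). HES5, NOTCH1 and NEUROG2 were thus at least 2-fold higher in the members with OLIG2. Other genes of the restricted RPC and Notch lists varied. The log2 ratio was 1.60 (1.07 to 2.14) for NRARP, 0.56 (0.27 to 0.86) for DLL1 and 0.45 (-0.10 to 0.99) for HEY1. Whether 2 cells shared a droplet in some of the members with OLIG2 was not tested.

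Most marker lists of other retinal cells were low in dividing cones. The 9 horizontal cell genes summed to 80.4 CPM in dividing cones, 94.1 CPM in postmitotic cones and 7073 CPM in horizontal reference cells, and 5 of the 849 dividing cones met the limit of 3 UMIs of TFAP2A and TFAP2B. The 9 ganglion cell genes summed to 13.5 CPM, the 8 genes of the retinal pigment epithelium to 17.7 CPM, and all 7 erythroid genes were at 0. The list of 4 genes with PTF1A and DLX genes, factors of horizontal and amacrine precursors, summed to 63.1 CPM in dividing cones, 21.6 CPM in postmitotic cones, 69.0 CPM in dividing OLIG2 cells and 245 CPM in horizontal reference cells. HEY1, also in the Notch list, made up 46.4 CPM of it and was the 1 gene tested and called higher than in postmitotic cones (log2 ratio 1.90), and PTF1A was at 10.3 CPM. PAX6, which is high in horizontal, amacrine and ganglion cells, was at 53.2 CPM in dividing cones and 1758 CPM in horizontal reference cells. Of 8 stress genes tested in each comparison, none was higher in dividing cones, and 2 were lower than in postmitotic cones and 1 lower than in dividing OLIG2 cells. Of the thyroid hormone and retinoid list, without genes of the rule, 5 were tested against postmitotic cones, of which only DIO2 was lower, and 6 against dividing OLIG2 cells, of which DIO2 was higher and 4 were lower. None of the 13 mitochondrially encoded genes is in the tables, so the mitochondrial share was not analysed here. The GFP reporter was at 290.2 CPM in dividing cones, 881 CPM in postmitotic cones, 518 CPM in dividing OLIG2 cells and 37.9 CPM in horizontal reference cells, and sorting on this fluorescence sets which cells of each class entered the library.

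In the OTX2CRISPR library 23 of 4951 cells passed the same limits, 0.465% (0.295 to 0.696%), against 16.6% in CTRL, a log2 ratio of shares of -5.16 (-5.82 to -4.56). They were 30.3% (20.2 to 41.9%) of the 76 cells past both cone limits, against 47.3% in CTRL. Their RBP4 was at 7999 CPM (7305 to 8741), a log2 ratio of -0.24 (-0.37 to -0.11) over CTRL, and THRB at 492 CPM against 484 CPM. Both genes chose the cells, so levels like those of CTRL are set in part by the limits. PRDM1 at 409.8 CPM and TFAP2D at 1197 CPM were near the CTRL values. OTX2 was at 1819 CPM (1497 to 2191) against 2374 CPM in CTRL, a log2 ratio of -0.38 (-0.67 to -0.11). SALL1 was at 49.2 CPM (10.1 to 144) from 3 UMIs, against 310.4 CPM in CTRL. OLIG2 was at 574 CPM (399.6 to 798), a log2 ratio of 1.97 (1.43 to 2.47) over the CTRL dividing cones. An OLIG2 UMI was held by 12 of the 23 cells. Other genes of the restricted RPC and Notch lists were not all higher. NEUROG2 was at 213 against 194 CPM in CTRL and NEUROD4 at 115 against 67.3 CPM. NOTCH1 was at 32.8 against 139 CPM and HES5 at 32.8 against 87.5 CPM, each from 2 UMIs. BHLHE22 was at 16.4 against 186 CPM, from 1 UMI. CDKN1C and CCND1 were at 606 and 197 CPM against 275 and 59.2 CPM. With 1 library per condition, the targeting of OTX2 and the library cannot be told apart as sources of these differences.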

How the data were processed

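Sorted cells were captured with Chromium 3' chemistry, and the authors deposited raw UMI counts per gene and barcode from Cell Ranger 3.0.2 on the chick build GRCg6a, as named in the submitters' processing notes. The deposited counts cover 23967 gene names, of which 18779 matched the RefSeq gene table. Cells with 200 to 3200 detected genes were kept. The members, comparison classes and gene lists were chosen with earlier results of these data known.

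From the counts, UMIs were summed per class and given in CPM with exact Poisson intervals. Ratios had exact conditional binomial intervals and shares Clopper-Pearson intervals. A class at 0 was set to 3 UMIs for a ratio, which is then a bound. Genes were called at a ratio of 2 with at least 100 UMIs, the genes of the rule left out. Genes were named as the 10 highest and lowest per comparison, the 15 leading genes higher than both, the 4 most abundant and all called members of the 22 lists, and genes that the study discusses, of which the main ones are reported. Cells were thinned to 1000 UMIs without replacement, and phases were scored with scanpy 1.11.5 from 42 S and 44 G2/M genes. Python 3.11.15, numpy 2.4.6, pandas 2.3.3, scipy 1.17.1 and matplotlib 3.10.9 were used. The ratios were tested on simulated data. With 1 library per condition no test across samples was run. Some genes are not reported here.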

Additional observations from a re-analysis of the deposited data

How the results depend on the processing

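No paired analysis was possible because each condition had 1 library. Leaving out the members with an OLIG2 UMI brought the share of dividing cones to 12.4% in CTRL and 0.222% in OTX2CRISPR. It raised the genes lower than both classes to 84 of 6938 tested, with the comparison classes not filtered in this way. The number of genes called moved with the minimum of UMIs, and so did the number tested. Against postmitotic cones, dividing OLIG2 cells and both, 9563, 9829 and 10454 genes were tested at a minimum of 20 UMIs. At a minimum of 500 these were 1579, 1826 and 2538, and at 1 UMI in each class 12819, 12930 and 12234. In the order higher and lower than in postmitotic cones, higher and lower than in dividing OLIG2 cells, and higher and lower than in both, a minimum of 20 UMIs gave 912, 964, 1043, 877, 85 and 193 genes, a minimum of 500 gave 138, 74, 103, 113, 8 and 5, and 1 UMI in each class gave 1380, 1893, 1770, 1484, 174 and 381. Thinning to 2000 UMIs left 225 of 4101 genes tested lower than in postmitotic cones and 30 of 5457 lower than in both. Against postmitotic cones with THRB only, a setting chosen after seeing the data, 32 of 6650 genes tested were lower than in both. TBX2 and B3GAT2 turned to log2 ratios of 0.22 and 0.32. HOXD13 and EVX2, with too few UMIs to be called there, turned to 1.04 and 0.99. Genes not called in the main comparison also turned, HES5 to 1.96, NEUROD4 to 1.17, HES4 to 0.20, DIO3 to -0.31 and PPP2R2B to -0.18, and ratios near 0 changed sign under most other settings. The alternatives for the OTX2CRISPR share were also added after seeing the data. The cause of these changes was not tested. Depth limits the comparison of low genes, as for GNGT2 with 1 UMI in dividing OLIG2 cells, and the 23 OTX2CRISPR cells leave wide intervals.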
